A study of Rattus norvegicus with 8 samples.

Results

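Transglutaminases are a small gene family, of which Tgm1 to Tgm6 are described here as measured in rat ovary. The members are the non-control probes whose gene name in the array files is Tgm1, Tgm2, Tgm3, Tgm4, Tgm5 or Tgm6. There are 6 such genes among 26204 gene names on the array, measured by 7 of 30350 probes, with a pair of probes for Tgm4 and 1 for each other gene. The family was picked because of its values in the comparison of PMSG with control arrays, above all those of Tgm6, so its differences in that comparison are given as a description, without a test. No usable probe for Tgm7 was found on the array, so it was not measured.

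The study injected female rats aged 26 days under the skin with PMSG, pregnant mare serum gonadotropin, at a dose of 50 IU, or with its vehicle alone, an albumin phosphate buffer (0.2 ml). The titles of the control samples, however, call them a reference without treatment. PMSG is a hormone preparation that acts like follicle-stimulating hormone and, in part, like luteinizing hormone. Ovaries were removed 48 h later, at an age of 28 days, and RNA from whole ovary was hybridised to 1-colour Agilent arrays, 4 for each treatment, all on 1 slide. The strain is not given in the sources used here, nor whether each array holds 1 animal or a pool, so p-values measure only the spread between these arrays, which may be technical.

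Transglutaminases join proteins. They need calcium, and they link the side chain of a glutamine in one protein to a lysine in another, or to a small amine, by a bond that ordinary proteases do not cut. Tgm2, tissue transglutaminase, is found in many cell types, also binds GTP, and acts at the cell surface on fibronectin and integrins. Tgm1, Tgm3 and Tgm5 are known from the epidermis and hair, where they build the cornified envelope. Tgm4 is known from the prostate, where in rodents it hardens the copulatory plug, and Tgm6 from nervous tissue. Relatives outside the set are F13a1, the clotting factor subunit that cross-links fibrin, and Epb42, a red cell membrane protein that has lost the enzyme activity.

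The values of Tgm6 rest on a single probe with 1 spot per array, so its sequence is shown, together with that of Tgm5, the family member whose probe resembles it most. All sequences are the 60-base probes of the array files, written 5′ to 3′, and the capitals mark the longest run that the Tgm6 and Tgm5 probes share, 14 bases.
Tgm6: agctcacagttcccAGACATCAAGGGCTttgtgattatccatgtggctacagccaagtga
Tgm5: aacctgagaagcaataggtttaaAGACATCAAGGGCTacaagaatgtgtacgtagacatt
The Tgm6 probe lies at chr3:117753398-117753457 on the plus strand of rn4, and the Tgm5 probe at chr3:107834946-107835005 on the minus strand. Exon and UTR annotation of that build was not used here. Of the other 20 pairs among the 7 probes, none shared more than 9 bases on the same strand. The run was found in 0 other probes of the array, and 0 other probes shared 15 or more bases with the Tgm6 probe. Although they share this run, the probes gave very different patterns, as the values below show. For comparison, the probe of Tgm1 at chr15:33846599-33846658 (minus strand) and 1 of the Tgm4 probes, at chr8:127816663-127816722 (plus strand), read as follows.
Tgm1: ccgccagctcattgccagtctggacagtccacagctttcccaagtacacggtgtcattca
Tgm4: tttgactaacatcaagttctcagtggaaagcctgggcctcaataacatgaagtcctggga
The other probes lie at chr3:148833052-148833111 (Tgm2), chr3:117658703-117658762 (Tgm3) and chr8:127819432-127819491 (Tgm4).

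Levels are given as log2 signal minus the 75th percentile of the same array. That percentile lay between 769 and 1103 units of signal, and 80.8% to 84.6% of probes were well above background on an array, a call made by the scanning software. Correlations across probes ran from 0.980 to 0.992 between arrays of the same label and from 0.969 to 0.978 between labels. Of the ovarian markers, 7 of 7 measured for granulosa cells, 6 of 6 for theca and luteal cells and 7 of 8 for oocytes were well above background on all 8 arrays. Cyp11a1, which starts steroid synthesis from cholesterol, and Star, which brings cholesterol to it, are generally known to rise after gonadotropin. Here they were lower in the arrays labelled PMSG, at -3.36 (SE 0.31, limma adjusted p = 2.32e-04) and -2.75 (SE 0.54, limma adjusted p = 0.00541) on the log2 scale, while Amh, a product of small growing follicles, was higher by 3.03 (SE 0.29, limma adjusted p = 2.61e-04). The labels are therefore open to doubt: were they exchanged between the groups, every direction given here would turn, that of Tgm6 included, which was not tested. Groups are called arrays labelled PMSG and arrays labelled control throughout. In whole ovary, fewer cells of a type and less RNA per cell cannot be told apart.

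Tgm6 stood far above every other member in its difference between the labels. Its signal before scaling was 28.3, 23.7, 24.6 and 20.8 on control-labelled arrays 1 to 4, and 269.5, 1722, 176 and 724 on PMSG-labelled arrays 1 to 4. The lowest PMSG-labelled array was thus well clear of the highest control-labelled one, and the values within the PMSG label were themselves widely spread. On the log2 scale relative to the 75th percentile, the levels were -5.21, -5.48, -5.35 and -5.73 in arrays labelled control and -1.87, 0.75, -2.13 and -0.58 in arrays labelled PMSG. The mean was -5.44 ± 0.22 (SD, n = 4) on control-labelled and -0.96 ± 1.32 (SD, n = 4) on PMSG-labelled arrays, 4.48 apart or 22.4-fold. The groups were separated by a gap of 3.08 on the log2 scale. The difference was 4.92 between the arrays of the first slide row and 4.05 between those of the second.

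The control level of Tgm6 was near the lower end of what the arrays measured. All 8 spots were called well above background, and on the control-labelled arrays the dimmest spot with that call had a signal of at most 12.6. The spot finder marked the Tgm6 spot as not found on 3 of the 4 control-labelled arrays and on 0 of the 4 labelled PMSG. Of all non-control spots, 7.93% were so marked in arrays labelled control and 7.92% in arrays labelled PMSG. With normexp background correction, which adds an offset of 50 units to the signal, the log2 difference of Tgm6 was 2.91. Leaving out 1 array gave from 3.92 (without PMSG array 2) to 4.87 (without PMSG array 3).

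**Figure D1:**
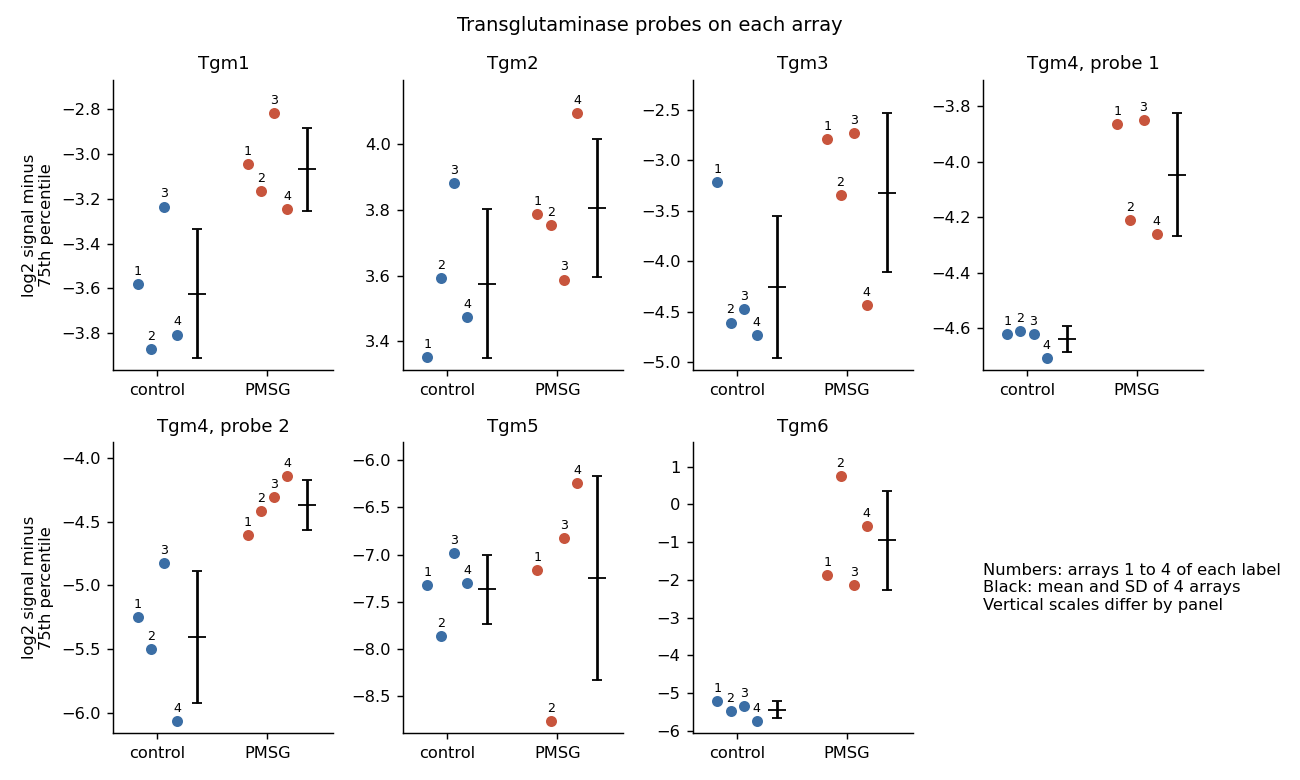
Level of each transglutaminase probe (log2 signal minus the array's 75th percentile) on arrays 1 to 4 of each label, with mean and SD (n = 4); Tgm4 probe 1 is the one whose sequence is shown, and vertical scales differ between panels. The Tgm6 points of the labels lie 3.08 apart at their closest, those of the Tgm4 probes 0.35 and 0.22 apart, and those of Tgm1, Tgm2 and Tgm3 overlap; Tgm5 was well above background on PMSG array 4 alone.

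Within the PMSG label, Tgm6 varied 7.32-fold between the lowest and the highest array. Of 22943 probes well above background on all 8 arrays, 82 others had a range at least as wide within that label. PMSG array 2 was the highest and array 4 the next, with arrays 1 and 3 close together below them. The genes most like Tgm6 across all 8 arrays were Amigo2 (Pearson r = 0.990), Phf7 (0.990), Tcp11l2 (0.988), Eva1c (0.988) and Zbtb44 (0.987), among 14088 genes compared. All of these also had PMSG array 2 on top, but their log2 differences were between 0.59 and 1.17, far below that of Tgm6. After each label's mean was removed, the genes whose deviations were most like those of Tgm6 were Slc25a30 (r = 0.980), Pxdc1 (0.979), Tbc1d8 (0.971), Crem (0.965), the cAMP-responsive element modulator, and Ajuba (0.964). Among these, Slc25a30 ranged over 1.82 and Crem over 1.98 on the log2 scale within the PMSG label, with array 2 highest. Their log2 differences between the labels were -0.77 for Slc25a30 and 0.39 for Crem. These correlations describe the same 8 arrays, and those over levels include the difference between labels; they carry no test.

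**Figure D2:**
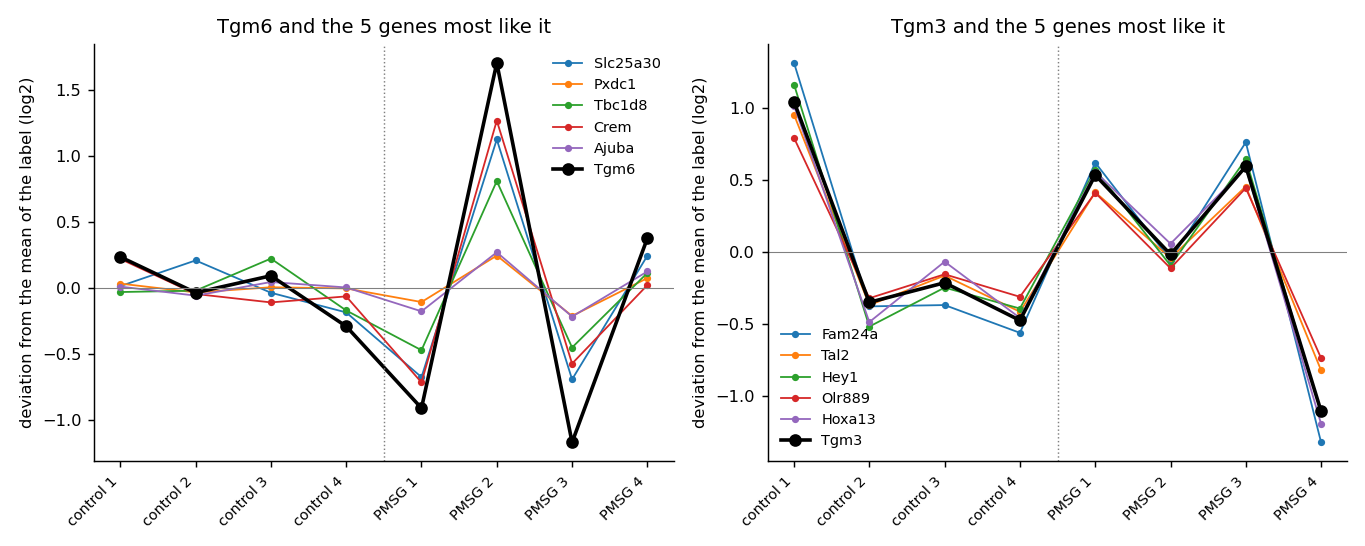
Deviation of each gene from the mean of its label (log2) on the 8 arrays, for Tgm6 (left) and Tgm3 (right) in black with the 5 genes most like each in colour; lines join values of 1 gene, and the order of arrays has no meaning. Tgm6 and its 5 genes peak on PMSG array 2, while Tgm3 and its 5 genes are high on control array 1 and low on PMSG array 4.

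Tgm3, which lies next to Tgm6 in the gene order of chromosome 3, did not follow it. Tgm3 stood at -3.21, -4.61, -4.47 and -4.73 in control-labelled arrays 1 to 4 and at -2.79, -3.34, -2.73 and -4.43 in arrays labelled PMSG. Control array 1 stood above PMSG arrays 2 and 4, and PMSG array 4 stood just above the other control-labelled arrays, so the groups overlapped. The means, -4.26 ± 0.70 (SD, n = 4) and -3.32 ± 0.79 (SD, n = 4), lay 0.93 apart. It was 1.28 without control array 1, 1.30 without PMSG array 4 and 0.56 with normexp background correction. The difference was 1.63 in the first slide row and 0.23 in the second, which holds both of those arrays. Deviations of Tgm3 and Tgm6 from their label means correlated at r = -0.29 over the 8 arrays.

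The pattern of Tgm3 over the arrays was shared with many probes, which was examined after its values had been seen. The genes with the most similar deviations were Fam24a (r = 0.998), Tal2 (0.994), Hey1 (0.994), Olr889 (0.994) and Hoxa13 (0.993). Of 22942 probes compared, 204 had deviations that correlated with those of Tgm3 at 0.95 or more, against 24 for Tgm6, 27 for Tgm1 and 14 for Tgm2. The median deviation of these 204 probes was 0.77 on control array 1 and -0.82 on PMSG array 4, where Tgm3 deviated by 1.04 and -1.11. They were dim, with a median level of -3.88 against -1.69 for the rest. Their median GC content was 51.7% against 45% for the rest, and the Tgm3 probe itself was at 55%. The part of these probe properties in the Tgm3 values was not tested.

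Tgm1 and Tgm2 shifted less. Tgm1, the membrane-bound enzyme of keratinocytes, stood at -3.58, -3.87, -3.24 and -3.80 in arrays labelled control and at -3.04, -3.17, -2.82 and -3.25 in arrays labelled PMSG. Control array 3 reached just above the lowest array labelled PMSG, which was the only overlap. The log2 difference was 0.55, with means of -3.62 ± 0.29 (SD, n = 4) and -3.07 ± 0.19 (SD, n = 4). Its difference was 0.84 in the first slide row and 0.26 in the second.

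Tgm2 was bright on every array, with signals between 9245 and 18457 and levels of 3.35, 3.59, 3.88 and 3.47 in arrays labelled control and 3.79, 3.75, 3.59 and 4.09 in arrays labelled PMSG. The groups overlapped over most of their range. The means, 3.58 ± 0.23 (SD, n = 4) and 3.80 ± 0.21 (SD, n = 4), lay 0.23 apart. The size depended on the scaling: it was 0.06 with median centring and 0.38 with quantile normalization. It was 0.13 without PMSG array 4, the highest array. Over all tested probes the median log2 difference was 0.11, and median centring moved it to -0.05.

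Both Tgm4 probes were higher in the arrays labelled PMSG without overlap. The probe whose sequence is shown gave -4.62, -4.61, -4.62 and -4.71 in arrays labelled control and -3.86, -4.21, -3.85 and -4.26 on the PMSG-labelled ones. Means of -4.64 ± 0.05 (SD, n = 4) and -4.05 ± 0.22 (SD, n = 4) lay 0.59 apart. The other probe gave -5.25, -5.50, -4.82 and -6.06 against -4.60, -4.42, -4.31 and -4.14. Its log2 difference was 1.04, with a wider spread among the control-labelled arrays (-5.41 ± 0.52, SD, n = 4) than among those labelled PMSG (-4.37 ± 0.19, SD, n = 4). The probes agreed in direction and not in size. The spot finder marked 2 of 8 spots of the first probe as not found under each label. For the other probe it so marked 1 of 8 spots on control-labelled arrays and 0 of 8 on PMSG-labelled ones. With normexp background correction the differences were 0.35 and 0.44, and with quantile normalization that of the first probe was 0.36.

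Duplicate spots show how precisely these levels were read. The log2 gap between the spots of a probe on 1 array had a median of 0.12 for Tgm2, 0.20 for the first Tgm4 probe, 0.31 for Tgm1 and 0.52 for the second Tgm4 probe, where it reached 1.39. For Tgm1 and the second Tgm4 probe this gap is therefore of the size of the differences between arrays. For the first Tgm4 probe it is wider than the whole range of the control-labelled arrays, 0.10. Tgm3, Tgm5 and Tgm6 have 1 spot each and give no such value.

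Tgm5 was at or near background. Its spot was well above background on 0 of 4 arrays labelled control and on 1 of 4 labelled PMSG, array 4, where the signal was 14.3 against 2.37 to 7.91 on the other arrays. No fold is given for it, and it did not enter the tests. Of the 7 member probes, the 6 others passed the filter of being well above background on at least 4 of the 8 arrays.

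The 3 probes whose groups did not overlap, those of Tgm6 and Tgm4, were all higher in arrays labelled PMSG. Of the 25303 probes that passed the filter, 17.9% were higher without overlap and 18.6% were lower without overlap, 36.6% together. The members were chosen on this comparison, so nothing is read from that count.

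**Figure D3:**
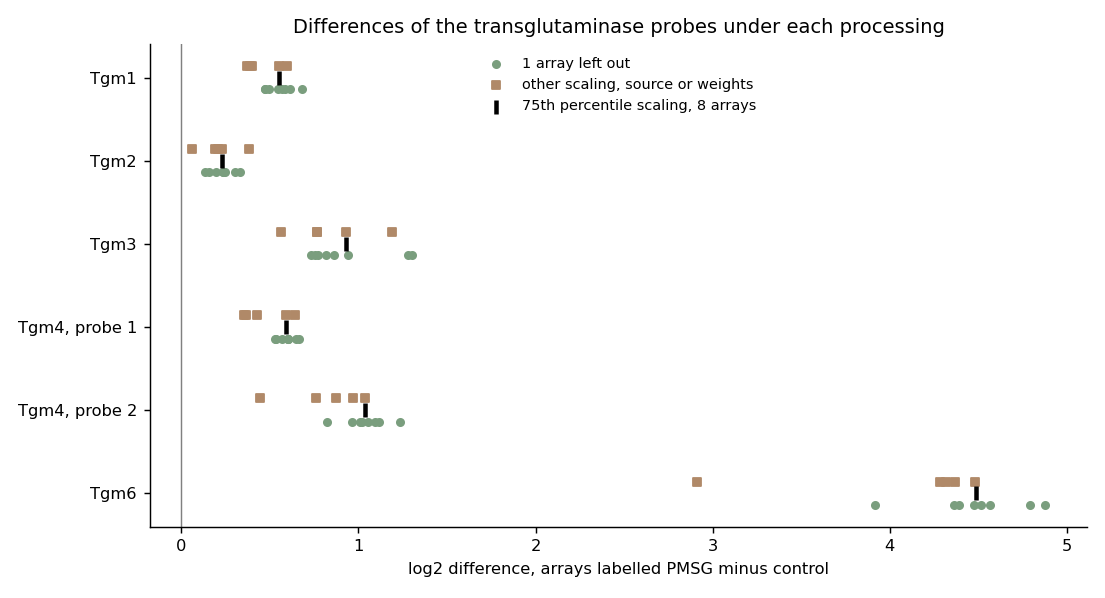
Log2 difference, arrays labelled PMSG minus control, of each member probe but that of Tgm5 (horizontal axis) with all 8 arrays and 75th percentile scaling (bars), with 1 array left out (circles) and under other scaling, source of values or weights (squares). Tgm6 lies between 2.91 and 4.87 in all of these, and Tgm2 comes nearest to 0, at 0.06.

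The 2 relatives that could be tested, F13a1 and Epb42, did not pass. F13a1, also known from macrophages, averaged -3.24 ± 0.43 (SD, n = 4) on control-labelled and -3.58 ± 0.28 (SD, n = 4) on PMSG-labelled arrays, a change of -0.34 (SE 0.23, limma adjusted p = 0.282). Epb42 was well above background on 3 arrays of each label, with a difference of -0.42 (SE 0.45, limma adjusted p = 0.485). Control array 3 was high for Epb42, at -4.28, against -6.51 to -5.85 on the other control-labelled arrays, and without it the difference was 0.06. F13b, the carrier subunit of factor XIII, was well above background on 0 of 8 arrays.

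Genes that make up the surroundings in which transglutaminases are known to work were taken from 6 lists of 81 genes. Of 75 genes measured and 61 tested, 24 differed between the labels, 9 higher and 15 lower in arrays labelled PMSG (limma with Benjamini-Hochberg adjustment over all probes, threshold 0.05). This is 39.3% of them, beside 34.2% of all tested probes (17.6% higher and 16.6% lower). Their median log2 difference was 0.12, beside 0.11 over all tested probes. The pooled share is near the background and is no sign that the listed genes as a whole stood apart. By list it was 57.9% for the partners of Tgm2, 41.7% for polyamine, 30% for clotting and 29.4% for cornified envelope genes. It was 0 for the 2 family relatives and the 1 seminal gene tested. Without PMSG array 4 the calls over all 6 lists numbered 30, with 16 higher and 14 lower. Calls over all tested probes also rose without that array, from 8658 to 11382 of 25303. The gain is therefore not particular to the listed genes, and the balance of their directions changed with that array.

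Surface and matrix partners of Tgm2 moved in both directions. Of 19 genes 8 fell in arrays labelled PMSG, 3 rose and 8 did not pass, with a median log2 difference of -0.48. In all 57.9% passed, beside 34.2% of all tested probes (17.6% higher and 16.6% lower). Vtn, encoding the adhesion protein vitronectin, rose by 1.97, between means of -1.74 ± 0.25 and 0.23 ± 0.13 (SD, n = 4 each; SE 0.14, limma adjusted p = 9.03e-05). Spp1, encoding osteopontin, a transglutaminase substrate, rose by 1.43 (SE 0.36, limma adjusted p = 0.0161). Itga5, the fibronectin receptor subunit, fell by 1.17 (SE 0.13, limma adjusted p = 5.00e-04). Its partner chain Itgb1 fell by 0.65, and Itgb3, Mfge8, Tgfb1, Txn1, Plcd1 and Sdc4 fell by 0.43 to 0.98, whereas Mdk rose by 0.83; these genes are named to complete the counts. Fn1, fibronectin itself, differed by -0.52 and did not pass (limma adjusted p = 0.109).

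Of the cornified envelope genes, which belong to the known setting of Tgm1, Tgm3 and Tgm5, 3 of 17 tested rose, 2 fell and 12 did not pass, with a median log2 difference of 0.18. The genes that rose are not specific to skin. Cst6 and Csta, encoding cystatins that inhibit cysteine proteases, rose by 1.91 (SE 0.36, limma adjusted p = 0.00465) and 1.73 (SE 0.31, limma adjusted p = 0.00382), and Dsp, the desmosome protein desmoplakin, by 1.54 (SE 0.15, limma adjusted p = 2.57e-04). Alox12b and S100a10 were the 2 that fell, by 0.92 and 0.41. Lor, loricrin, a main substrate in skin, differed by 0.18 (limma adjusted p = 0.496), and Ivl, involucrin, was well above background on 0 of 8 arrays.

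Most markers of squamous epithelium were low, and their mean moved with Tgm3 on some arrays. Trp63, which is part of that mean, was not low. It averaged 0.72 in arrays labelled control and 0.54 in arrays labelled PMSG. The mean level of the 6 tested markers ran from -3.36 to -3.20 in arrays labelled control and was -2.66, -3.28, -2.49 and -3.50 in arrays labelled PMSG 1 to 4. Tgm3 and this mean were thus both highest on PMSG arrays 1 and 3 and lowest of that label on array 4. That order was not particular to squamous markers. On PMSG arrays 1 to 4 the mean of the neuron markers was -3.57, -3.96, -3.55 and -4.27. That of the granulosa markers was 2.56, 2.53, 2.60 and 2.24. On control array 1, where Tgm3 was high, the squamous mean was -3.22 and not raised. Of the markers, all 8 were measured, 6 were well above background on all arrays and 1 passed the test, Krt5, a basal keratin, which rose by 0.67 (limma adjusted p = 0.0357). That call was lost with slide row as a block, and with any 1 control-labelled array or PMSG array 1, 2 or 3 left out (limma adjusted p up to 0.0885). The part of such cells in the Tgm3 values was not tested.

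Tgm6 was set beside neuron markers in the same way. Of 8 such genes measured, 6 were well above background on all arrays and Syt1 was so on 0. Of 7 tested, Gap43 rose from a mean of -5.99 to -4.88 (limma adjusted p = 0.0160), while Tubb3 and Map2 fell by 1.68 and 1.08 (limma adjusted p = 4.98e-04 and 0.00502). The other tested markers did not pass: Stmn2, Nefl and Syn1 differed by 0.86, 0.61 and 0.40, and Snap25 by -0.77. The median log2 difference of the 7 was 0.40. Their mean level ran from -4.07 to -3.47 in arrays labelled control and from -4.27 to -3.55 in arrays labelled PMSG. These ranges overlapped, while single markers moved in both directions. Mean levels of the 8 oocyte markers, in contrast, ran from -3.17 to -2.26 and from -1.35 to -0.51, and those of 7 oviduct epithelium markers from -3.21 to -2.69 and from -1.37 to -0.91, without overlap. All 8 oocyte markers rose, with the zona pellucida gene Zp2 at 2.17, the germ cell RNA-binding gene Dazl at 2.06 and the oocyte growth factor Gdf9 at 2.05. So did 6 of the 7 oviduct markers, with Cdh16, a cadherin, at 2.51, the mucin Muc1 at least 8.03-fold higher and the cilia motor gene Dnah5 at least 2.37-fold higher; 3 and 2 of the 4 control-labelled arrays measured these last genes above background, and with the deposited values Dnah5 did not pass (limma adjusted p = 0.221). Within the PMSG label the oocyte mean was -0.51, -0.64, -0.99 and -1.35 on arrays 1 to 4, and the oviduct mean was -1.37, -1.32, -1.27 and -0.91, neither of which had the order of Tgm6. Of the single markers in these lists, only the oocyte marker Ddx4 had that order, at -5.00, -4.34, -5.07 and -4.79. The part of these cells in the Tgm6 difference was not tested.

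Macrophages and endothelium are known sources of factor XIII and Tgm2. Of 8 macrophage and leukocyte markers 4 rose, Ptprc, Aif1 and Laptm5 by 0.69, 0.68 and 0.64 (limma adjusted p = 0.00447, 0.00444 and 0.00248), and 4 did not pass. Among those 4, Csf1r differed by 0.29, but Cd163, Mrc1 and Cd14 differed by -0.54, -0.36 and -0.29. Of 8 endothelial markers 4 fell and 1 rose, with Flt1 at -1.04 and Eng at -0.90 (limma adjusted p = 0.00574 and 0.00186). The marker that rose was Vwf, by 0.50 (limma adjusted p = 0.00907). Tek, an angiopoietin receptor that 3 of 4 PMSG-labelled arrays measured above background, fell by a factor of 2.02 or more. Its call was lost with normexp (limma adjusted p = 0.175). Of 7 smooth muscle and fibroblast markers 3 rose, Dcn by 0.70, Lum by 0.58 and Pdgfra by 0.50, and none of these calls held with median centring (limma adjusted p = 0.0822, 0.150 and 0.185). That of Lum was also lost without control array 1, 2 or 4 or without PMSG array 3 (limma adjusted p up to 0.0687). The other markers of this list did not pass: Myh11 differed by 0.56, and Acta2, Tagln and Des by -0.15, -0.35 and -0.51. Of 7 granulosa markers Nr5a2 and Inhba fell by 1.47 and 1.32 and Amh rose. The groups of Inhba overlapped, and its call was lost with the replicate block (limma adjusted p = 0.0650) and without control array 2 or 4 or PMSG array 1 or 2 (up to 0.0641). Of 6 theca and luteal markers 3 fell and Insl3 rose by 2.60.

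Of the genes around clotting, in which factor XIII acts, 2 of 10 tested rose and 1 fell. F2, prothrombin, rose by 1.78, between means of -5.44 ± 0.22 and -3.67 ± 0.41 (SD, n = 4 each; SE 0.21, limma adjusted p = 5.80e-04), and F10, encoding the factor that activates it, rose by 0.82 (SE 0.16, limma adjusted p = 0.00545; 0.0979 with quantile normalization). Serpinc1, antithrombin, fell by 2.37 (SE 0.79, limma adjusted p = 0.0490). Its groups overlapped, since control arrays 1 and 4 stood at -5.11 and -5.65 and arrays 2 and 3 at -2.51 and -2.42, and its call was lost in 12 of 17 alternatives (limma adjusted p from 0.0218 to 0.117 over all of them), among them those without control array 2 or 3 or without any 1 of the PMSG-labelled arrays.

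Polyamines are small amines that transglutaminases can attach to proteins. Of 12 genes of polyamine and cross-link metabolism 4 fell, 1 rose and 7 did not pass, with a median log2 difference of 0.10. Azin1, which protects ornithine decarboxylase, fell by 0.96 (SE 0.16, limma adjusted p = 0.00234), Sat1, which acetylates polyamines for breakdown, by 0.71 (SE 0.13, limma adjusted p = 0.00422), and Odc1, ornithine decarboxylase itself, by 0.54 (SE 0.10, limma adjusted p = 0.00430). Srm fell by 0.43 and Azin2 rose by 0.48. Of the 9 seminal and prostate genes measured, in whose setting Tgm4 is known, only Svs5 was well above background on enough arrays to be tested, and it did not pass (-0.17, limma adjusted p = 0.741).

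**Figure D4:**
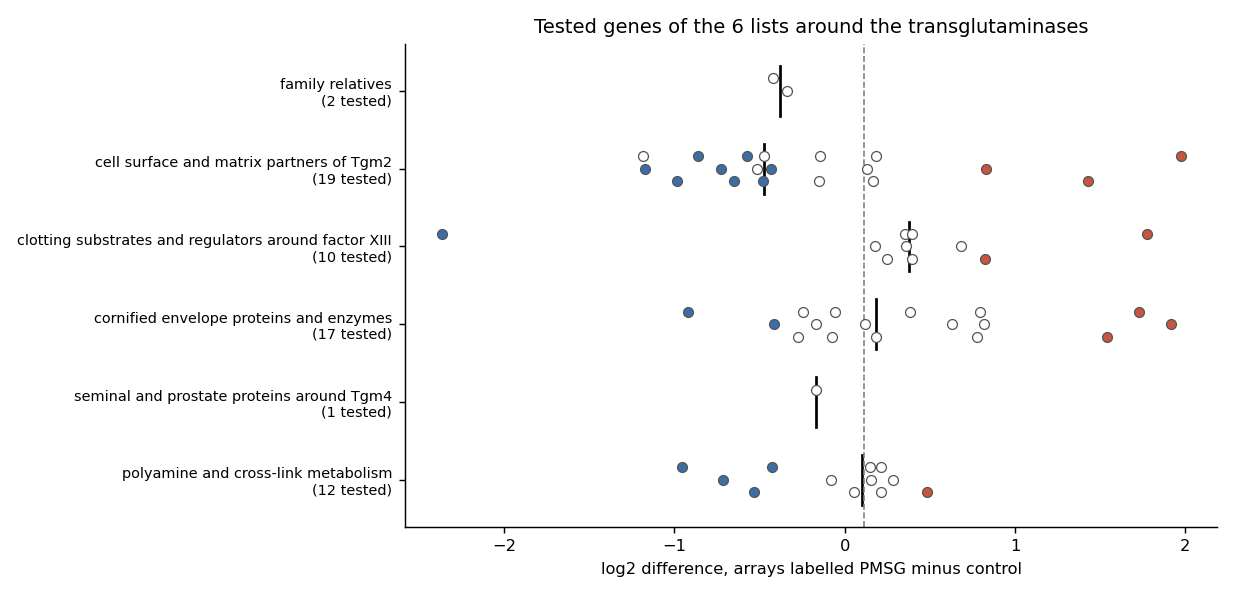
Log2 difference, arrays labelled PMSG minus control, of every tested gene in the 6 lists; filled points passed the limma threshold (red higher, blue lower), open points did not, short bars are list medians and the dashed line is the median of all tested probes at 0.11. Partners of Tgm2 hold 8 lower and 3 higher genes around a median of -0.48, while the other lists with at least 10 tested genes have medians from 0.10 to 0.38.

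The genes that flank Tgm6 on chromosome 3 were compared because Tgm3 and Tgm6 lie side by side. On the far side of Tgm3, Stk35 differed by -0.24 (SE 0.09, limma adjusted p = 0.0765), and it passed under quantile normalization (0.0129) and median centring (0.0172). Pdyn, the opioid peptide gene prodynorphin, 462 kb from the Tgm6 probe in rn4, fell by 2.73 (SE 0.20, limma adjusted p = 8.21e-05), from between -1.22 and -0.75 to between -4.01 and -3.16. On the other side, the brighter probe of Snrpb, a core protein of the splicing machinery, 17.1 kb away, differed by -0.06 (limma adjusted p = 0.748), and a dimmer Snrpb probe rose by 0.86 (SE 0.15, limma adjusted p = 0.00280). These probes of the same gene therefore disagree. Tmc2 differed by 0.33 (limma adjusted p = 0.411), and Nop56 fell by 0.49 (SE 0.09, limma adjusted p = 0.00389). A further Nop56 probe, placed on chromosome 9 by the array files, had a log2 difference of -0.28 (limma adjusted p = 0.0458) and lost its call in 10 of 17 alternatives. An unnamed probe between Tgm3 and Tgm6 differed by 0.15 and did not pass (limma adjusted p = 0.289). Of the measured genes on either side, none had a difference of the size or the within-label order of Tgm6.

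**Figure D5:**
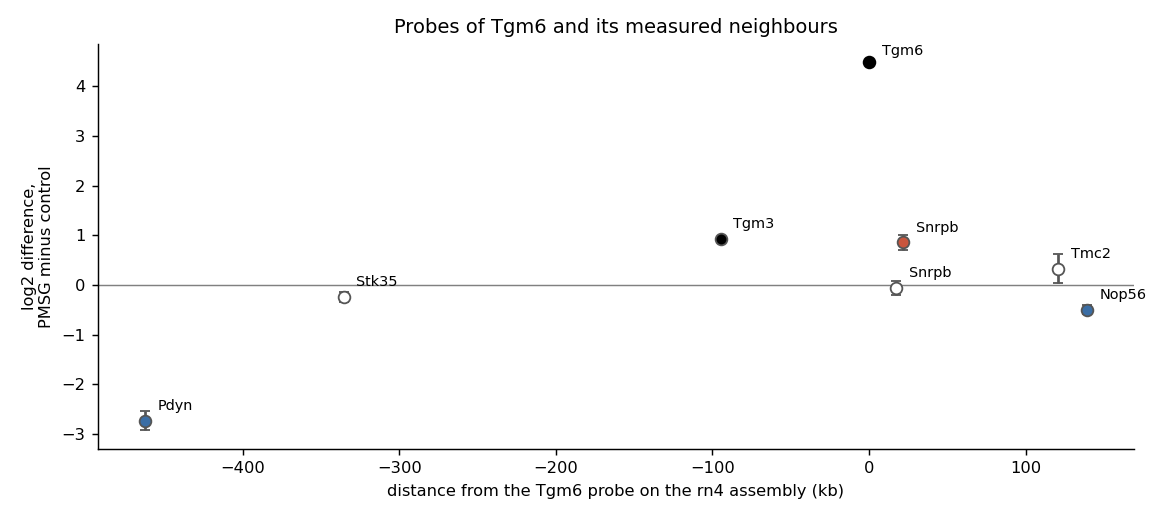
Log2 difference, arrays labelled PMSG minus control (vertical axis), of the Tgm6 probe and the probes of its 3 nearest measured genes on each side against distance in rn4; error bars are limma standard errors, red and blue points passed the threshold, open points did not, and the members Tgm3 and Tgm6 (black) were not tested. Tgm6 stands at 4.48 and Pdyn at -2.73, and the other plotted probes run from -0.49 (Nop56) to 0.93 (Tgm3).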

How the data were processed

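Agilent Feature Extraction 11.5.1.1 produced the intensity of each spot, per the file headers, and probe coordinates are on rn4. A second set of values, log2 as deposited, matched the scanner files as log2 signal minus each array's 75th percentile (r of at least 0.998 with the own array). Its array medians lay between -3.21 and -2.82, so probes are not centred. Per the labels' protocols, 500 ng of RNA was labelled with Cy3. Calls of well above background, outlier and saturation are scores of 0 or 1 in the deposited scanner files.

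Outlier spots were left out, log2 processed signals of a probe's spots were averaged, 17 probes without a usable spot on some array were dropped, and the 75th percentile was subtracted. No spot was saturated (0 on every array). Probes well above background (in at least 0.5 of their spots) on at least 4 of 8 arrays, 25303 in all, were fitted with limma 3.58.1 in R 4.3.3 (lmFit, eBayes, no covariates, Benjamini-Hochberg, threshold 0.05), after a check on simulated data. The number of arrays, 4 per label, limits the precision. Where a brighter group was above background on all arrays and the other was not, a fold bound was taken against each dim array's floor: its dimmest detected spot, or the probe's own signal if brighter. Listed genes are represented by their brightest probe. Names were matched without regard to case, and Adgrg1, Azin2 and Trp63 through RefSeq names of GRCr8; Svs2 is the probe of Semg1. RefSeq was otherwise used only for gene order.

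Members and lists were chosen with earlier results of these data known. Named genes are the members, the family relatives, the 3 largest called differences of each list, the neighbours of Tgm6 and the 5 genes most like it by Pearson correlation; others are named to complete a count. Columns not used numbered 0.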

Additional observations from a re-analysis of the deposited data

Results flagged for a closer look

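Among 108 groups of 4 values examined for the members and the named genes, 5 had 1 array far from the other 3, judged by its distance from the next array as a share of the whole range. About 1 in 20 groups, or 5.4 here, would show this by chance. For the first Tgm4 probe, control array 4 was apart (gap 0.880 of the range), at -4.71 against -4.62 to -4.61, a group whose whole range was 0.10. For Tmc2, the neighbour of Tgm6, control array 3 was apart (gap 0.832), at -5.11 against -5.85 to -5.73. For Cdh16 of the oviduct list, control array 4 was apart (gap 0.887), at -1.31 against -0.72 to -0.65. For Laptm5, PMSG array 3 was apart (gap 0.903), at 2.52 against 2.42 to 2.43. For Insl3, a theca cell product, PMSG array 4 was apart (gap 0.921), at 2.49, with the highest array of the label at 3.59. The wide Tgm6 values within the PMSG label had no such gap.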

How the results depend on the processing

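Over 17 alternatives, the count of listed genes past the threshold ran from 21 to 31 against 24, and the genes called in common with the 24 numbered from 21 to 24. The listed genes higher in arrays labelled PMSG numbered 9, and 16 with array weights. With 1 array left out they ran from 9 to 16, the lower ones from 12 to 14, all listed calls from 21 to 30 and all probes past the threshold from 6552 to 11382 against 8658. Of the member probes, Tgm1, Tgm2, Tgm3, Tgm4 and Tgm6 kept a difference above 0 in all 13 alternatives that could move it. The first Tgm4 probe had 0.36 with quantile normalization, 0.43 with median centring and 0.35 with normexp; the second Tgm4 probe had 0.44 and Tgm6 2.91 with normexp, whose offset shrinks differences of dim probes. With 1 array left out Tgm1 ran from 0.47 to 0.68, Tgm2 from 0.13 to 0.33, Tgm3 from 0.73 to 1.30, the Tgm4 probes from 0.53 to 0.67 and from 0.82 to 1.23 and Tgm6 from 3.92 to 4.87. Of 46 named probes outside the family, 35 kept their side of the threshold in all their alternatives.

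The replicate block gave 22 listed genes and 7346 probes past the threshold. Labels are balanced over replicate numbers and slide rows, so these blocks cannot move a member's mean difference. Same-numbered arrays had deviations correlated at 0.0444, 0.0361, 0.183 and -0.0192. Such values cannot show whether the arrays were paired, and the main fit assumed no pairing. With slide row as a block 22 listed genes passed.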
